A study of Mus musculus with 18 samples.

Results

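A set of 10 genes of Wnt signalling was followed across mouse embryonic fibroblasts (MEF) that received a miR-29b expression vector and TGF-β: the ligands Wnt5a, Wnt5b and Wnt9a, the secreted antagonists Sfrp1, Sfrp2, Dkk2 and Dkk3, the receptor Fzd1, and the target genes Axin2 and Lef1. They were taken by gene symbol from the deposited matrix, 10 of its 55450 genes. Of the 10, 6 had enough reads to be tested: Wnt5b, Wnt9a, Dkk3, Fzd1, Axin2 and Lef1. The main result was that Dkk3 rose with TGF-β in empty vector and CMV-miR-29b cells and Lef1 in empty vector cells. Fzd1 was higher in cells given the Col1a1-miR-29b vector than in empty vector cells with and without TGF-β, and Wnt9a with TGF-β. The Fzd1 difference with TGF-β passed in all 17 alternative analyses. That without TGF-β no longer passed in 8 of them, and that of Wnt9a no longer passed in 12. The calls of Dkk3 no longer passed in 4 (empty vector) and 1 (CMV-miR-29b), and that of Lef1 in 2.

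The cells were MEF obtained from the American Type Culture Collection, transfected on 12-well plates with Lipofectamine. The plasmid was empty pcDNA3 (Ctrl), a vector in which the collagen promoter drives miR-29b (Col1a1-miR-29b), or a vector in which the cytomegalovirus promoter drives it (CMV-miR-29b). In each of these 3 arms, some wells were given TGF-β at 20 ng/ml from 6 h after transfection for 24 h and others were left without it, so that 6 groups of 3 libraries each were sequenced, 18 in all. Every group, the controls included, had therefore been through transfection, the cells had a single source, and the share of cells that took up a plasmid was not measured. Per the study's methods, both miR-29b vectors carried the human miR-29b-1 sequence. Both also held sequences for the fluorescent proteins EGFP and mRFP1, which are not described for the empty pcDNA3. The mass of DNA given differed with vector size. In comparisons with the empty vector, miR-29b and these other differences between plasmids cannot be told apart. Libraries are called by the letter in their name: c, d and e, or c, d and f in the Col1a1-miR-29b arm, where the letter f is in no sample title and the library was placed by its group prefix alone. The study's methods speak of repeated experiments, but no label said that the libraries came from separate cultures, so p-values measure the spread between these libraries, which may be technical in part.

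Wnt proteins are lipid-modified ligands that bind Frizzled receptors together with the co-receptors LRP5 and LRP6. In the canonical branch this stops a complex of Axin, APC and GSK3β from marking β-catenin for destruction, and β-catenin then acts with TCF/LEF factors on target genes such as Axin2 and Lef1. Secreted Frizzled-related proteins (Sfrp) bind the ligands, and Dickkopf proteins (Dkk) mostly act on LRP5 and LRP6. In fibroblasts the pathway is studied beside TGF-β because both are linked to matrix production and fibrosis, and miR-29b is known as a repressor of collagen mRNAs.

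A miRNA pairs with its targets mostly through its seed, bases 2 to 8. The mature strand is shown because the vectors were built to make it, with the seed in capitals, as given in the RefSeq miRNA table, which lists RNA bases:
mmu-miR-29b-3p: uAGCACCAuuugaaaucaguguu
The sequence complementary to the seed, TGGTGCT read on the sense strand only, was searched in the longest annotated 3′ UTR of each gene (GENCODE M21, GRCm38). It was in 0 of the 10 members. It was in 20 of the 95 other Wnt genes of the lists used below (21.1%), in 19 of the 71 of these that were tested (26.8%) and in 2118 of 14530 tested genes with an annotated 3′ UTR (14.6%). The windows in the listed Wnt genes that passed the test in a comparison below follow, with the match in capitals; the antagonist Sfrp4 and other listed genes also had a match, not shown. A match describes these letters only, and its absence draws no conclusion about regulation.
Gsk3b, chr16:38242187-38242193, plus strand: aatgaacctTGGTGCTtatgggcca
Lrp6, chr6:134446807-134446813, minus strand: tgaaggatcTGGTGCTgcttttgct
Lrp6, chr6:134446695-134446701, minus strand: ttggaatgaTGGTGCTttgcaagga
Amer1, chrX:95421985-95421991, minus strand: ccaatttctTGGTGCTttagattct
Amer1, chrX:95420656-95420662, minus strand: tgttactatTGGTGCTtattttccc
Fzd5, chr1:64734738-64734744, minus strand: ttaccttctTGGTGCTgatgccccc
Fzd6, chr15:39037679-39037685, plus strand: ctcactgtgTGGTGCTccttggctg
Daam1, chr12:71992062-71992068, plus strand: tttttagacTGGTGCTggtgtaagt
Ccn4, chr15:66921350-66921356, plus strand: ggcaaacagTGGTGCTtaagatgta
Ccn4, chr15:66921959-66921965, plus strand: tagcttattTGGTGCTaagccctac

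The libraries held 65898017 to 80332633 counts (median 74155860), and 21161 genes were tested. The labels were checked first. Reads on the Mir29b-1 locus, which in these poly(A) libraries come from a precursor transcript and not from mature miR-29b, were 110 to 309 per CMV-miR-29b library, 203 to 293 with TGF-β, 0 in all 6 empty vector libraries, 0 to 1 with Col1a1-miR-29b and 2 to 6 with Col1a1-miR-29b and TGF-β. The label of the Col1a1-miR-29b libraries without TGF-β could thus not be checked by these reads. How reads from the human sequence in the vectors align to this mouse locus was not tested. TGF-β raised Col1a1 in the 3 arms by 1.26, 1.03 and 1.12 on the log2 scale. Of 8 fibroblast markers, 7 were above 3 counts in every library, the exception being Thy1 (0 to 8 counts). Of 6 epithelial markers, 1 was above 3 counts in every library (Krt14, 17 to 197 counts), and Krt14 was higher with TGF-β in the empty vector arm (log2 fold change 1.53, edgeR adjusted p = 0.023). The summed epithelial level was 0.799 to 1.20 CPM (counts scaled to a common library size) without and 1.71 to 3.05 CPM with TGF-β in those cells. The summed endothelial level (3 of 5 markers above 3 counts in every library) was 1.22 to 1.87 CPM without and 3.27 to 3.76 CPM with TGF-β. The summed haematopoietic level (2 of 5 markers above 3 counts in every library) was 11.9 to 12.8 CPM without and 9.35 to 11.7 CPM with TGF-β in empty vector cells. By counts, Cd68 was the largest haematopoietic marker (613 to 1004 per library), with Csf1r next at 12 to 56. Of the fibroblast markers 3 were called higher with TGF-β in empty vector cells, while Dcn was lower (log2 fold change -1.11, edgeR adjusted p = 0.00446). The summed fibroblast level was 2191 to 2514 CPM without and 4365 to 5215 CPM with TGF-β in those cells. No listed marker was at 0 throughout. The fibroblast, epithelial and endothelial levels moved with TGF-β as Dkk3 and Lef1 did, and the haematopoietic level moved the other way. The part of these levels in those results was not tested. In bulk samples, fewer cells of a type and less RNA per cell cannot be told apart.

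Among the 19 Wnt ligands, Wnt9a was the member with an appreciable level. On the FPKM scale (fragments scaled by transcript length and library size, which allows genes to be compared) it stood at 4.39 ± 0.297 in empty vector cells (SD, n = 3), second to Wnt10a at 5.11 ± 0.570, and the ranges of these neighbours overlapped (4.21 to 4.73 against 4.48 to 5.599). Wnt9a was the ligand with the highest mean in each of the 5 other groups, and did not overlap Wnt10a in 4 of them. The widest gap was in Col1a1-miR-29b cells with TGF-β, at 7.22 FPKM for Wnt9a and 3.86 for Wnt10a (n = 2, since the FPKM of library f was not used). In CMV-miR-29b cells without TGF-β the pair overlapped, at 4.57 and 4.56 FPKM. Wnt5b ranked between 8 and 11 of the 19 ligands, with 0.112 ± 0.0267 FPKM in empty vector cells. Wnt5a, the prototype of non-canonical ligands, was at 0 in 17 libraries and had 4 counts in Col1a1-miR-29b with TGF-β, library f.

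The antagonists were low. Dkk3, an atypical member of the Dickkopf family, had the highest mean of 14 antagonists in every group, yet only 0.0374 ± 0.0236 FPKM in empty vector cells, where it overlapped the next gene, Sfrp4. With TGF-β it reached 0.184, 0.258 and 0.249 FPKM in empty vector, Col1a1-miR-29b and CMV-miR-29b cells and overlapped no other antagonist. Sfrp1 and Dkk2 had 0 counts in all 18 libraries, and Sfrp2 had 21 counts in all, spread over 5 libraries with at most 8 in a library. A count of 0 allows up to 3 counts, or 0.0374 to 0.0459 CPM depending on the library, by counting error alone. No change could be measured for Wnt5a, Sfrp1, Sfrp2 and Dkk2 at this depth.

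Fzd1, a Frizzled receptor, stood in the middle of its list, ranking between 9 and 11 of 21 receptors and co-receptors, with 3.90 ± 0.295 FPKM in empty vector cells. Axin2, a scaffold of the destruction complex and a feedback target of β-catenin, had 0.292 FPKM there and Lef1, a DNA-binding partner of β-catenin, 0.0645 FPKM, 11th of 12 nuclear factors. The plot of levels by role shows that most cytoplasmic transducers were far above these targets and antagonists.

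**Figure D1:**
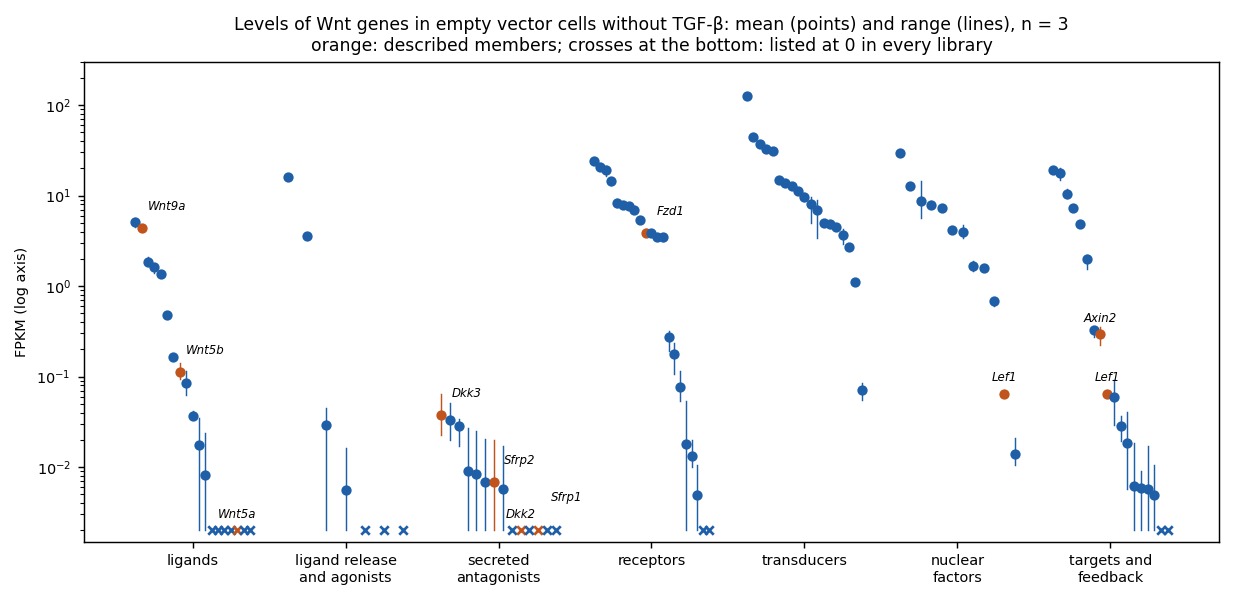
FPKM (log axis) of the Wnt genes in empty vector cells without TGF-β by role, points giving the mean and lines the range of 3 libraries; orange marks the 10 members and crosses at the bottom genes listed at 0 in every library. Wnt9a (4.39) and Fzd1 (3.90) sit high, Dkk3 (0.0374) and Lef1 (0.0645) low, and Sfrp1, Dkk2 and Wnt5a are crosses.

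The first question was which Wnt genes followed TGF-β. In empty vector cells 2 of the 6 tested members passed the threshold (edgeR quasi-likelihood test, adjusted p under 0.05 over all genes tested), both higher, beside 5.88% of all genes (3.88% higher and 2.01% lower). In Col1a1-miR-29b cells it was 1 of 6, beside 4.32% of all genes (3% higher and 1.32% lower). The CMV-miR-29b arm also gave 1 of 6, beside 4.95% (3.08% higher and 1.87% lower). The median log2 fold change of the 6 was 0.14, 0.22 and 0.31, and that of all genes lay between -0.01 and 0.00.

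Dkk3 had the largest change of the members. Its counts were 8, 7 and 19 in empty vector cells (libraries c, d and e) and 61, 57 and 41 with TGF-β. Each TGF-β library was thus above each library without, and the means were 0.143 ± 0.0865 and 0.717 ± 0.148 CPM. The log2 fold change was 2.31 ± 0.55 (SE; 4.96-fold, edgeR adjusted p = 0.0186). The call rests on few reads: it was lost without empty vector library c (adjusted p = 0.0885), library d (0.0928) or TGF-β library c (0.0639), with the log2 fold change then at 2.10, 2.05 and 2.16.

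In CMV-miR-29b cells Dkk3 rose from 4, 19 and 14 counts to 64, 61 and 75, again with no overlap. The log2 fold change was 2.55 ± 0.55 (5.85-fold, edgeR adjusted p = 0.0107), and it stayed between 2.13 and 2.9988 and past the threshold whichever of the 6 libraries was left out. In Col1a1-miR-29b cells Dkk3 had 21, 11 and 43 counts (c, d and f) without and 57, 86 and 56 with TGF-β. These groups did not overlap either, but library f was well above c and d without TGF-β, and the log2 fold change of 1.41 ± 0.52 did not pass (edgeR adjusted p = 0.18). Leaving out 1 library moved it between 1.04 (without d of the group lacking TGF-β) and 2.06 (without f of that group), never past the threshold. It passed with limma on log2(FPKM + 1) and log2(FPKM + 0.1) (adjusted p = 0.0111 and 0.0224), where library f was not used. It did not pass in the other 15 alternatives, among them the edgeR fits with both libraries f left out, without and with the replicate block.

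Lef1 was the other gene to rise in empty vector cells. It had 52, 53 and 49 counts without TGF-β, a very even group, and 107, 158 and 167 with it. The means were 0.646 ± 0.0176 and 1.94 ± 0.402 CPM and the log2 fold change was 1.59 ± 0.35 (3.001-fold, edgeR adjusted p = 0.0115). Without empty vector library e or TGF-β library e the call was lost, at log2 fold changes of 1.55 and 1.44 (adjusted p = 0.0534 and 0.0591).

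In the arms with miR-29b, Lef1 did not pass. CMV-miR-29b cells had 74, 52 and 36 counts and, with TGF-β, 84, 98 and 100, groups that did not overlap (log2 fold change 0.94 ± 0.35, edgeR adjusted p = 0.168). Col1a1-miR-29b cells had 35, 40 and 67 counts and, with TGF-β, 52, 73 and 128 (log2 fold change 0.86 ± 0.35, edgeR adjusted p = 0.248). Library f was the highest of its group in both conditions, and these groups overlapped.

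Wnt9a changed by a similar amount in the 3 arms. Its counts went from 1265, 1257 and 1367 to 1373, 1867 and 1408 in empty vector cells, from 1356, 1708 and 1336 to 1901, 2055 and 1842 in Col1a1-miR-29b cells, and from 1189, 1412 and 1335 to 1685, 1405 and 1546 in CMV-miR-29b cells. On the CPM scale, which corrects for depth, the groups did not overlap in any arm: 15.7 to 17.5 against 19.3 to 24.0, 18.6 to 22.4 against 25.7 to 28.0, and 15.1 to 18.4 against 21.2 to 23.0 CPM. The log2 fold changes were 0.35, 0.42 and 0.37, each ± 0.10.

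Only the middle value passed (edgeR adjusted p = 0.0268), the other arms giving 0.0564 and 0.0531, and the response differed from that of the empty vector arm by 0.07 ± 0.14 and 0.01 ± 0.14. The call in Col1a1-miR-29b cells was lost when any library but Col1a1-miR-29b d was left out, with values over the 6 libraries between 0.37 and 0.52. DESeq2 passed all 3 arms, with adjusted p of 0.0193, 0.00261 and 0.0148.

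Axin2, Fzd1 and Wnt5b passed in no arm. Axin2 had 148, 110 and 172 counts in empty vector cells and 98, 85 and 84 with TGF-β, or 1.81 ± 0.415 and 1.21 ± 0.149 CPM, groups that just overlapped on that scale (log2 fold change -0.58 ± 0.24, edgeR adjusted p = 0.203). Its log2 fold changes in the other arms were -0.15 and 0.00. Fzd1 lay within 0.07 of no change in all 3 arms. Wnt5b, with 4 to 34 counts per library, gave -0.49 ± 0.59 in empty vector cells. Its locus overlaps Fbxl14 on the opposite strand (2488 to 2984 counts), and how strand was used in counting is not given in the sources used here, so its counts are uncertain. The Lef1 locus overlaps Gm43352 on the opposite strand (0 to 42 counts) and Gm42449 on the same strand (0 to 4 counts). The part of these genes in the Lef1 counts was not tested.

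Groups without overlap were counted as a plain description. In empty vector cells 4 of the 6 members had them (Wnt9a, Wnt5b, Dkk3 and Lef1), beside 21% of all genes, with Col1a1-miR-29b 2 (21.9%) and with the CMV vector 3 (20.9%).

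**Figure D2:**
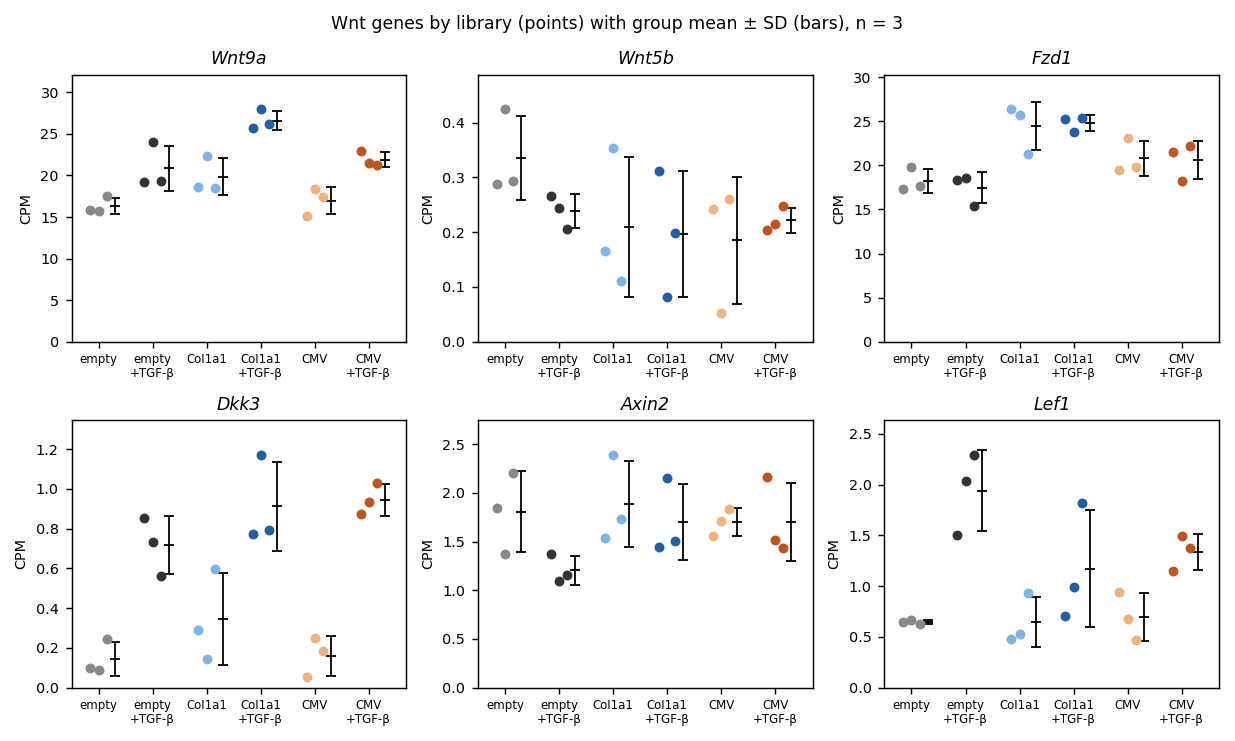
Level in CPM of the 6 tested members in every library (points) by group, with the group mean ± SD (bars, n = 3). Dkk3 lies below 0.6 CPM without TGF-β and reaches 1.17 with it, Wnt9a is highest in Col1a1-miR-29b cells with TGF-β (26.6 CPM), and Fzd1 is high in both Col1a1-miR-29b groups.

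Whether the response itself differed with a miR-29b vector was tested as the difference between the TGF-β effects of a vector arm and of the empty vector arm. These differences share the empty vector libraries. None of the 6 members passed for Col1a1-miR-29b or for CMV-miR-29b, by edgeR, DESeq2 or limma, and 0 had an unadjusted p under 0.05 in edgeR. Over all genes edgeR called 0 in either, with 961 (4.54%) and 1129 (5.34%) genes at an unadjusted p under 0.05, and DESeq2 called 27 and 19.

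For Dkk3 the response was lower by 0.90 ± 0.74 on the log2 scale in Col1a1-miR-29b cells and higher by 0.24 ± 0.76 in CMV-miR-29b cells. For Lef1 the differences were -0.73 ± 0.49 and -0.64 ± 0.49, and for Axin2 0.43 ± 0.33 and 0.59 ± 0.33. Each of these values was within 2 standard errors of 0, so differences of this size were not detectable here. Lef1 thus passed in empty vector cells and in neither miR-29b arm without being shown to respond differently there.

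**Figure D3:**
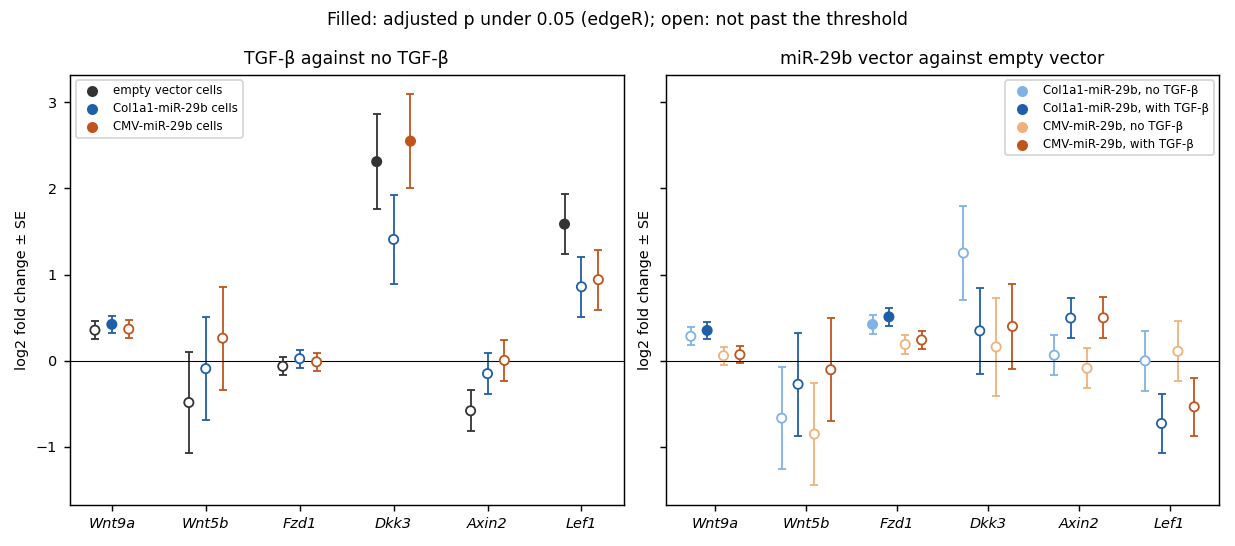
log2 fold changes ± SE of the 6 tested members from edgeR, for TGF-β against no TGF-β in the 3 arms (left) and for each miR-29b vector against the empty vector (right); filled points passed adjusted p 0.05. On the left Dkk3 passes in 2 arms (2.31 and 2.55), Lef1 in empty vector cells (1.59) and Wnt9a in Col1a1-miR-29b cells (0.42), and on the right Fzd1 passes in 2 comparisons and Wnt9a in 1.

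The second question was how the vectors differed from the empty vector. Comparisons with the empty vector in the same TGF-β condition share those control libraries. Without TGF-β, 1 of the 6 members passed in Col1a1-miR-29b cells, beside 6.27% of all genes (2.57% higher and 3.7% lower). With TGF-β it was 2 of 6, beside 12.9% (5.31% higher and 7.63% lower). All of these members were higher. With TGF-β the median log2 fold change of the 6 was 0.35 and that of all genes 0.02. The median transcript GC content was 51.1% in the genes called higher there and 47.0% in those called lower, and Fzd1 (55.7%) and Wnt9a (56.4%) were above both, so each is also given with offsets for GC content and length.

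Fzd1 was the most stable of these. It had 1386, 1590 and 1379 counts in empty vector cells and 1916, 1959 and 1534 in Col1a1-miR-29b cells, or 18.3 ± 1.37 and 24.4 ± 2.75 CPM. The groups did not overlap (as for 29% of all genes), and the log2 fold change was 0.42 ± 0.11 (1.34-fold, edgeR adjusted p = 0.0307). The call was lost when any library but f was left out, with values over all 6 libraries left out between 0.36 and 0.51. It was kept with the offsets (0.43, edgeR adjusted p = 0.0257).

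With TGF-β, Fzd1 had 1310, 1441 and 1126 counts in empty vector cells and 1870, 1750 and 1790 in Col1a1-miR-29b cells. The means were 17.4 ± 1.75 and 24.8 ± 0.903 CPM, again without overlap, a state that 30% of all genes shared. The log2 fold change was 0.51 ± 0.11 (1.42-fold, edgeR adjusted p = 0.00602), 0.51 with the offsets (adjusted p = 0.00636), and it passed in all 17 alternatives run.

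Wnt9a rose by a log2 fold change of 0.35 ± 0.10 (1.28-fold, edgeR adjusted p = 0.0343) in Col1a1-miR-29b against empty vector cells with TGF-β, from 20.9 ± 2.73 to 26.6 ± 1.18 CPM. The lowest Col1a1-miR-29b library (25.7 CPM) was above the highest empty vector library (24.0 CPM, library d). With the offsets it was 0.31 (adjusted p = 0.0514). Leaving out Col1a1-miR-29b library c, d or f, or empty vector library c or e, lost the call. Over all 6 libraries left out, that of empty vector library d included, the values lay between 0.29 and 0.46. Without TGF-β the log2 fold change was 0.28 ± 0.10 (edgeR adjusted p = 0.114) with no overlap between groups.

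Lef1 was lower in Col1a1-miR-29b than in empty vector cells with TGF-β, with 52, 73 and 128 against 107, 158 and 167 counts. The log2 fold change of -0.73 ± 0.34 did not pass (edgeR adjusted p = 0.189). Library f alone reached into the empty vector range: without it the value was -1.20 and passed (adjusted p = 0.0426), as did the FPKM alternatives, which lack library f. Axin2 was at 1.70 ± 0.389 against 1.21 ± 0.149 CPM in the same comparison, without overlap, and its log2 fold change of 0.49 ± 0.24 did not pass (edgeR adjusted p = 0.202). These markers of β-catenin activity therefore had point estimates of opposite sign.

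In CMV-miR-29b cells 0 of the 6 members passed against the empty vector in either condition by edgeR, DESeq2 or limma, beside 0.00473% and 0.00945% of all genes by edgeR. At an unadjusted p under 0.05 it was 0 members without and 1 with TGF-β (Fzd1), beside 5.46% and 12% of all genes. Over all genes edgeR called 1 and 2 genes, Mir29b-1 among them in both, and DESeq2 43 and 264. The Fzd1 log2 fold changes were 0.19 and 0.24 (edgeR adjusted p = 0.93 and 0.387), in the direction seen with Col1a1-miR-29b. With TGF-β, Axin2 gave 0.50 and Lef1 -0.54 (edgeR adjusted p = 0.424 and 0.572), close to their values with Col1a1-miR-29b, although these comparisons have the empty vector libraries in common. Groups without overlap were seen for Wnt5b without TGF-β (10.6% of all genes) and for Dkk3, Axin2 and Lef1 with it (15.9%).

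The rest of the pathway was read from lists of 105 Wnt genes by role, 95 of them outside the 10 members and 71 of these tested. In empty vector cells given TGF-β, 11 of 71 rose and 0 fell (15.5%, beside 5.88% of all genes), with a median log2 fold change of 0.07 against 0.00 for all genes. With Col1a1-miR-29b 4 rose (5.63%, beside 4.32%) and with the CMV vector 5 (7.04%, beside 4.95%), and 0 fell. The number in empty vector cells was 6 to 11 higher and 0 to 1 lower with 1 library left out, beside 725 to 1428 of all genes called.

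Of 13 tested targets and feedback genes, members included, 5 were higher with TGF-β in empty vector cells (38.5%, beside 5.88% of all genes). The other 8 did not pass, and the median log2 fold change of the 13 was -0.12. Among the targets that rose, Ccn4 (WISP1), a matricellular protein named for its induction by Wnt, went from 2509, 2481 and 2285 counts to 9508, 10960 and 10680 in the empty vector arm. The log2 fold change was 2.20, 2.18 and 2.29 in the empty vector, Col1a1-miR-29b and CMV-miR-29b arms, with edgeR adjusted p of 1.71e-11, 1.97e-11 and 9.90e-12. Its relative Ccn5 (WISP2) had 48, 62 and 60 counts without and 241, 345 and 239 with TGF-β in empty vector cells, and log2 fold changes of 2.37, 2.09 and 2.75. The ranges with and without TGF-β lay far apart for both.

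Lgr6, a receptor for R-spondins, rose by 2.04, 1.99 and 2.48 on the log2 scale in the 3 arms, from 199, 119 and 182 to 551, 686 and 684 counts in empty vector cells. The ligand Wnt7b went from 16, 19 and 16 to 97, 129 and 122 counts there, a log2 fold change of 2.86 (edgeR adjusted p = 0.00677). In CMV-miR-29b cells it gave 3.90 (adjusted p = 0.00129) and in Col1a1-miR-29b cells 1.94 (adjusted p = 0.0756). Daam1, a formin that acts downstream of Dishevelled, passed in empty vector cells at 0.72 (adjusted p = 0.0154), not without any of the 3 empty vector libraries or TGF-β library d. Fzd2, singled out after its values were seen, was higher in all 3 arms at 0.45, 0.53 and 0.50. Ccn4, Ccn5, Lgr6 and Fzd2 passed in all 17 alternatives in each arm. The other genes called in empty vector cells were Fzd6, Tnks, Tcf7, Tle3 and Myc, at 0.18 to 0.46. Of the 17 alternatives, their calls no longer passed in 11, 7, 9, 2 and 5, in that order.

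**Figure D4:**
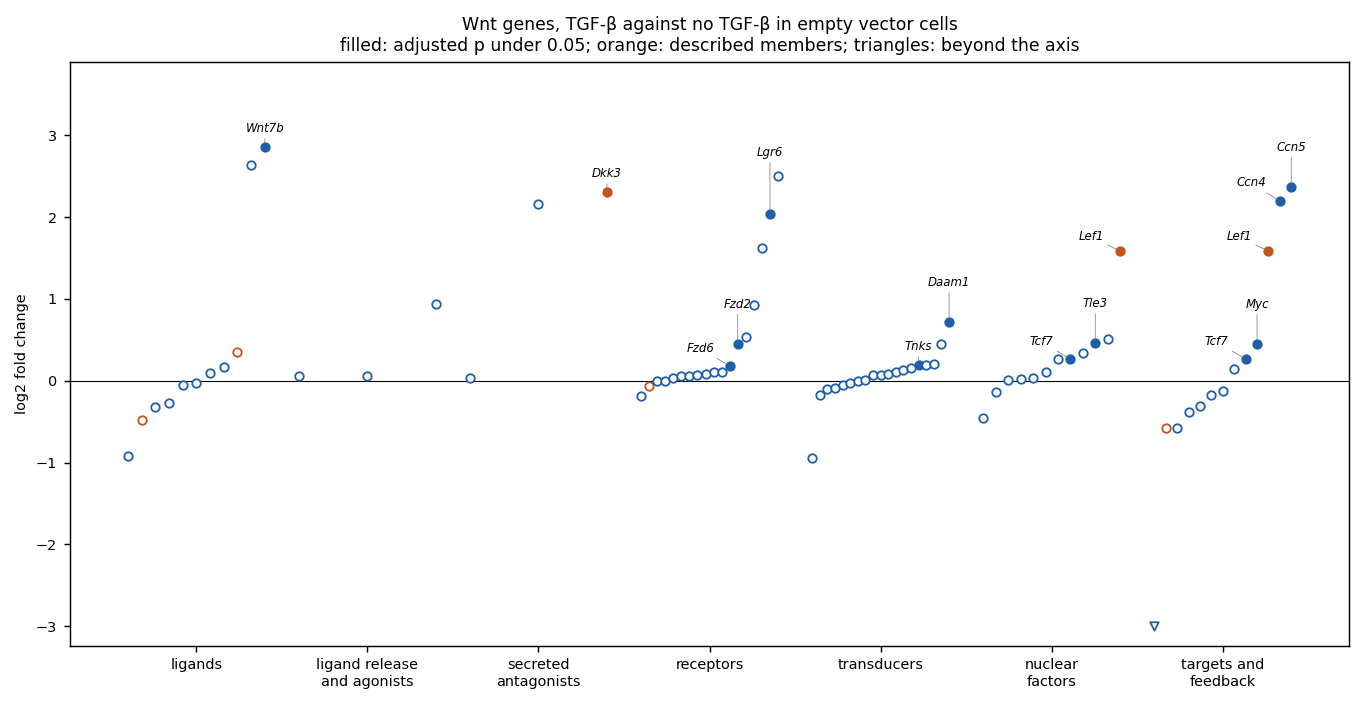
log2 fold changes of the tested Wnt genes by role, TGF-β against no TGF-β in empty vector cells; filled points passed adjusted p 0.05, orange points are members, and a triangle is a value beyond the axis (Tnfrsf19, -4.41, adjusted p = 0.456). All filled points lie above 0, led by Wnt7b (2.86), Ccn5 (2.37), Dkk3 (2.31) and Ccn4 (2.20), and Lef1 and Tcf7 appear in 2 lists.

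The same lists were read between vectors. In Col1a1-miR-29b against empty vector cells with TGF-β, 2 of 71 were higher and 9 lower (15.5%, beside 12.9% of all genes), with a median log2 fold change of -0.09 against 0.02 for all genes, and 60 did not pass. Of 19 cytoplasmic transducers 1 was higher and 6 lower (36.8%, beside 12.9% of all genes, 7.63% being lower). This was the highest share of any role, the others giving 0% to 33.3%. With 1 library left out, 0 to 1 transducers were higher and 3 to 7 lower, beside 1291 to 3181 of all genes called. The replicate block gave 1 higher and 2 lower, beside 1152 of all genes. Without TGF-β, 1 of the 71 was higher (Fzd5) and 2 lower (Lrp6 and Btrc), or 4.23%, beside 6.27% of all genes. Leaving out 1 library there gave 1 higher and 1 to 6 lower, beside 468 to 1043 of all genes called, and Lrp6 passed in 2 of the 6 cases. In CMV-miR-29b cells 0 of 71 passed by edgeR in either condition, with 4 and 12 at an unadjusted p under 0.05, beside 5.46% and 12% of all genes. The genes named from here on in this comparison were chosen after their values were seen.

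Gsk3b, the kinase of the destruction complex, had 9617, 5564 and 6245 counts in empty vector cells and 3783, 3638 and 3448 in Col1a1-miR-29b cells, both with TGF-β. The log2 fold change was -0.97 ± 0.24 (edgeR adjusted p = 0.0161). Its empty vector libraries were widely spread, also without TGF-β (4408, 8197 and 8240), and the call was lost without Col1a1-miR-29b library c or f or empty vector library c. Axin1, the scaffold of that complex, gave -0.22 (adjusted p = 0.00512) and the co-receptor Lrp6 -0.32 (adjusted p = 0.00225), from 9488, 9671 and 9687 to 7622, 7713 and 7440 counts. The receptor Fzd5 was higher, at 0.43 (adjusted p = 0.00661). The calls for Axin1, Lrp6 and Fzd5 were kept whichever library was left out.

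The count changed with the offsets and with the libraries used, as did that over all genes. With the offsets for GC content and length, 3 of 71 were higher and 4 lower, beside 2192 of all genes called (2738 without the offsets). Of the transducers 1 was higher and 2 lower. Gsk3b (-0.79), Axin1 (-0.24) and Fzd5 (0.54) still passed, whereas Lrp6 was at -0.11 (adjusted p = 0.0884) and Amer1 at -0.13 (adjusted p = 0.197). Leaving out 1 library gave 1 to 3 of the listed genes outside the members higher and 5 to 15 lower, beside 1291 to 3181 of all genes called.

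Wnt genes with a miR-29b seed match moved in both directions in Col1a1-miR-29b against empty vector cells with TGF-β. Of 19 tested Wnt genes with a match, 1 was higher (Fzd5) and 3 lower (Gsk3b, Lrp6 and Amer1), with a median log2 fold change of -0.11. Of the 52 without, 1 was higher and 6 lower, with a median of -0.06. Over all genes the medians were -0.05 for the 2118 with a match and 0.00 for the 12412 without, with 96 and 818 called higher and 336 and 1219 called lower. Ccn4, with 2 matches, gave -0.09 (adjusted p = 0.438). In CMV-miR-29b against empty vector cells with TGF-β, the Wnt medians were -0.046 with a match and -0.05 without, and 0 passed. Over all genes they were -0.049 and -0.014. Without TGF-β, the Wnt medians with and without a match were -0.16 and -0.03 for Col1a1-miR-29b. For CMV-miR-29b they were -0.07 and -0.02.

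**Figure D5:**
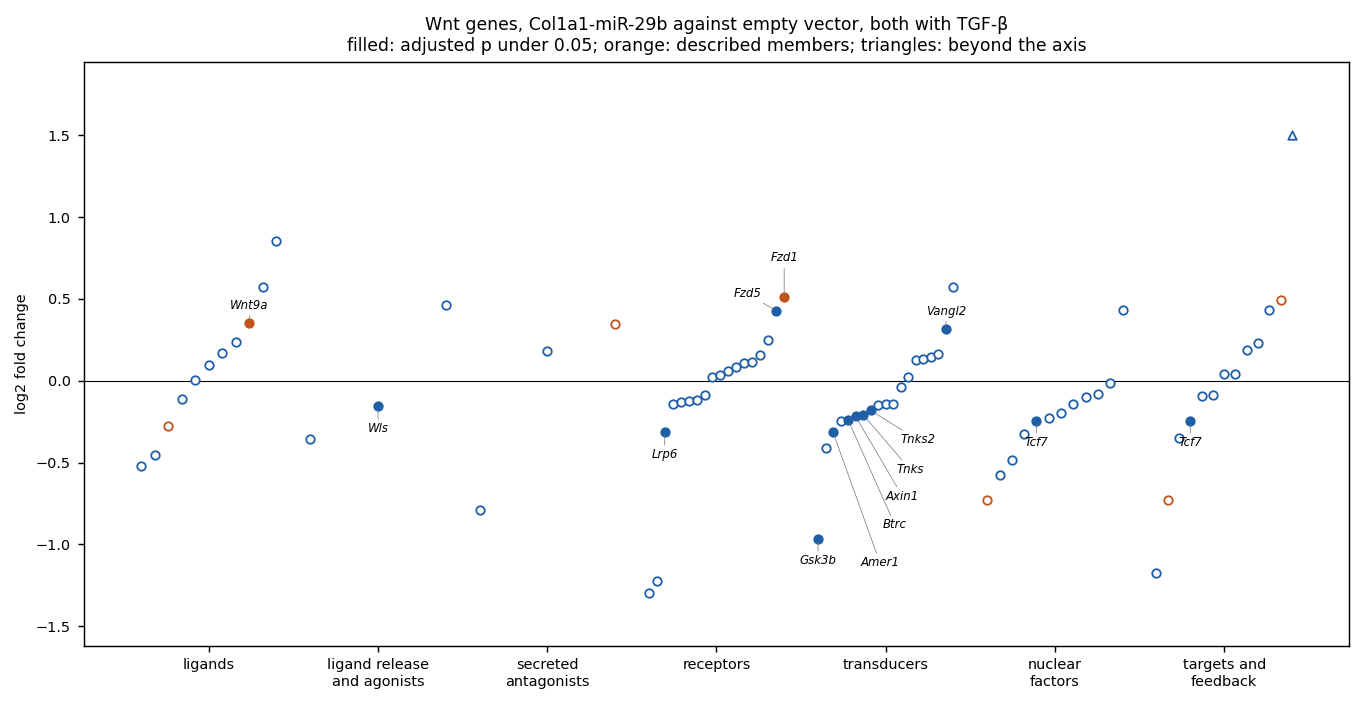
log2 fold changes of the tested Wnt genes by role, Col1a1-miR-29b against empty vector, both with TGF-β; filled points passed adjusted p 0.05, orange points are members and a triangle is a value beyond the axis. Fzd1 (0.51), Fzd5 (0.43) and Wnt9a (0.35) are filled above 0. Gsk3b (-0.97) is the lowest filled point, with 6 of 19 transducers filled below 0, beside 7.63% of all genes called lower.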

How the data were processed

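Poly(A) RNA of 18 MEF samples was sequenced as paired reads on a NovaSeq (TruSeq stranded kit). Per the study's methods and the submitters' processing notes, the authors trimmed reads with cutadapt, checked them with FastQC, aligned them with HISAT2 and assembled transcripts with StringTie; versions, and how the counts were derived from the assemblies, are not given in the sources used here. The deposited matrix holds the authors' counts per gene (whole numbers, not normalized) and the authors' FPKM per gene. Among low counts 33.8% to 36.7% were multiples of 4 (25% by chance), so division by 4 was an alternative. A 0 count is listed by the authors as a small fixed FPKM and was read as 0. The notes name mm9, but the coordinates of 52506 of 55450 genes equal those of GENCODE M21 (GRCm38), the build printed. The FPKM columns of the 2 libraries f (2 columns) were not used. Columns of annotation were used only for names and positions.

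Counts were tested with edgeR 4.0.16 (limma 3.58.1, R 4.3.3): TMM scaling, filterByExpr by group, a quasi-likelihood fit of 6 group means over all 18 libraries, contrasts, and Benjamini-Hochberg adjustment over all 21161 genes tested. CPM is TMM-scaled. Self-tests on simulated counts preceded the fits. The counts per library set the depth; intervals and limits cover counting error only. Same-lettered libraries of different groups did not deviate together (mean r = 0.01 over 36 pairs, against 0.00 over 70 pairs with other letters), so the letters were not used as pairs. Named were all 10 members; other listed Wnt genes past the threshold with at least 1.5-fold in a TGF-β comparison; and label checks. Genes outside this rule are stated as such. Members and lists were chosen with earlier results of these data known. Alternatives were DESeq2 1.42.0, its size factors, total-count scaling, a 1-count filter, only the groups compared, a replicate block, limma on log2(FPKM + 1) and log2(FPKM + 0.1), counts divided by 4 and leaving out each library. Chosen after seeing the data were splines (5 degrees of freedom) for transcript GC content and length as offsets, and both libraries f left out.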

Additional observations from a re-analysis of the deposited data

How the results depend on the processing

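Of the single values recomputed under the alternatives, 1170 kept direction and side of the threshold, 151 no longer passed, 18 newly passed and 5 changed sign, none of them past the threshold: the Dkk3 difference in response between CMV-miR-29b and empty vector cells (0.24) became -0.18 without CMV-miR-29b library c and -0.35 without empty vector library e (-0.35 to 0.70 over the libraries left out), that between Col1a1-miR-29b and empty vector cells (-0.90) 0.058 and 0.12 with limma on log2(FPKM + 1) and log2(FPKM + 0.1), and the Axin2 response in Col1a1-miR-29b cells (-0.15) 0.058 without library d.

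Of the 6 tested members, the number past the threshold for TGF-β was 2 in empty vector cells, 1 in the Col1a1 arm and 1 in the CMV arm. With only the groups compared it was 1, 0 and 0, where fewer libraries set the spread. In Col1a1-miR-29b cells it was also 0 with total-count scaling and with both libraries f left out, and in CMV-miR-29b cells 2 with DESeq2, counts divided by 4 or GC and length offsets. Against the empty vector, Col1a1-miR-29b without TGF-β (1) gave 0 with the 1-count filter and with only the groups compared, and with TGF-β (2) it gave 1 under both of these and under the offsets. Leaving out each library gave 1 to 2, 0 to 1 and 1 for TGF-β in the 3 arms, 0 to 1 and 1 to 2 for Col1a1-miR-29b without and with TGF-β, and 0 in the other 4 comparisons. Apart from the changes named, the cause was not tested.

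With the letter as a replicate block, which drops both libraries f, the number was 0 for TGF-β in Col1a1-miR-29b cells and 0 for Col1a1-miR-29b without TGF-β, the Fzd1 value there being 0.49 (edgeR adjusted p = 0.0862), and the calls of Dkk3 in the empty and CMV vector arms (2.38 and 2.58) and Lef1 (1.58) for TGF-β were kept. For Col1a1-miR-29b with TGF-β the block passed 2 members, Fzd1 (0.47, adjusted p = 0.049) and Lef1 (-1.23, adjusted p = 0.0499), and Wnt9a no longer passed. Over all genes the block called 932, 394 and 795 for TGF-β in the 3 arms (1245, 914 and 1047 without it), 161 and 1152 for Col1a1-miR-29b without and with TGF-β (1327 and 2738), 1 and 2 for CMV-miR-29b (1 and 2) and 2 and 0 for the differences (0 and 0). DESeq2 called 2321 for Col1a1-miR-29b without TGF-β. Depth limits Dkk3, Wnt5b and Lef1, with 4 to 167 counts per library, and leaves Wnt5a, Sfrp1, Sfrp2 and Dkk2 without a test.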

Other observations

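For each tested member, the gene most alike over the 18 libraries was found by Pearson's r of log2(CPM + 1), as a description only, since libraries of a group share their treatment. Wnt9a was most like Hbegf, an EGF receptor ligand (r = 0.96), Fzd1 like Mrpl10 (0.94), Dkk3 like the chemokine Ccl17 (0.93) and Lef1 like the collagen gene Col6a3 (0.91). Axin2 (Gm13181, 0.80) and Wnt5b (Smad5, 0.77) had looser matches.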
